A study of Mus musculus with 9 samples.

Results

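Src kinase and the actin scaffold genes of podosomes were followed in 9 RNA-seq libraries of RAW264.7 cells, a mouse macrophage line that forms osteoclast-like cells under RANKL, the cytokine that drives osteoclast formation. The 9 genes were Src, Ptk2b, Cttn, Gsn, Pxn, Vcl, Tln1, Was and Cbl, taken by gene symbol from the 56691 genes of the deposited table, in which each symbol occurs 1 time. The libraries form 3 groups of 3, namely control (untreated cells), RANKL (cells given RANKL) and RANKL + UD (cells given RANKL and uridine, abbreviated UD), and RNA was collected in every group after 3 days of culture. All groups are the same cell line, so no primary osteoclast precursor is among them, and the UD dose of these libraries is not named in the sources used here.

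Osteoclasts attach to bone through podosomes, which are dots of branched actin around which integrins and plaque proteins assemble. In a mature osteoclast the podosomes gather into a belt, and on bone a dense ring of actin, the sealing zone, closes off the surface under the cell. Src, a tyrosine kinase without which osteoclasts form but do not resorb bone, works there with the focal adhesion kinase relative Pyk2 (gene Ptk2b) and the adaptor and ubiquitin ligase Cbl. Gelsolin (Gsn) severs and caps actin filaments, cortactin (Cttn) and WASP (Was) act on the Arp2/3 complex that branches actin, and talin (Tln1), vinculin (Vcl) and paxillin (Pxn) link integrins to the filaments.

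RANKL raised Src from an almost silent level to the third most abundant of the 9 transcripts, raised Gsn 2.30-fold, and lowered Ptk2b and Cbl. With UD added, Src fell 1.63-fold and Gsn 1.34-fold against RANKL alone, Tln1 and Vcl also fell, and both Src and Gsn stayed above control. The fall of Vcl did not pass the threshold in 4 of 17 alternative ways of processing. Cttn was close to undetected in every library.

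The promoters of Src and Gsn, which rose with RANKL, and Cbl, which fell, are shown to be read beside the values. Each runs 5′ to 3′ on the gene's strand from 250 bases before to 50 bases after a RefSeq start in GRCm38.p6, and 6 of the 9 genes had an entry. Src lies at chr2:157424043-157424342 (plus strand), the Gsn starts at chr2:35256109-35256408, chr2:35266494-35266793 and chr2:35282130-35282429 (plus strand), and Cbl at chr9:44233997-44234296 (minus strand). Capitals mark the NFAT core GGAAA (or TTTCC on the other strand) and the PU.1 motif GAGGAA (or TTCCTC), which share letters where they overlap.
Src: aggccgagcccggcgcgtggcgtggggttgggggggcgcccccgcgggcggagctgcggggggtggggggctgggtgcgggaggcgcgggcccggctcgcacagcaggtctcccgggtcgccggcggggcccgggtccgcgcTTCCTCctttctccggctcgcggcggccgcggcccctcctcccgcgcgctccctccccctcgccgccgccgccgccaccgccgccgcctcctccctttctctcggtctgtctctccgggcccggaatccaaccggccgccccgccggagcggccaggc
Gsn, start 1: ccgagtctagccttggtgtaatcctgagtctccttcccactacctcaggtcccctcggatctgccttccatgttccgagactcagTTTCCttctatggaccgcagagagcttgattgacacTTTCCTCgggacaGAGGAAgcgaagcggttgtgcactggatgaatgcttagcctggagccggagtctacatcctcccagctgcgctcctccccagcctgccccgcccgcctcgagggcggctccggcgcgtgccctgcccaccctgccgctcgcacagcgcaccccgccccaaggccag
Gsn, start 2: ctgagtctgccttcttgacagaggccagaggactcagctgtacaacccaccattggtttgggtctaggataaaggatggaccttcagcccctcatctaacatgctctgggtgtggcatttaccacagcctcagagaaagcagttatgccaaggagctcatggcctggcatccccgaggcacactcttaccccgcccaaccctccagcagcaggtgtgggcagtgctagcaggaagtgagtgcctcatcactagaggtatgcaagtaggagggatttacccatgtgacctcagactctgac
Gsn, start 3: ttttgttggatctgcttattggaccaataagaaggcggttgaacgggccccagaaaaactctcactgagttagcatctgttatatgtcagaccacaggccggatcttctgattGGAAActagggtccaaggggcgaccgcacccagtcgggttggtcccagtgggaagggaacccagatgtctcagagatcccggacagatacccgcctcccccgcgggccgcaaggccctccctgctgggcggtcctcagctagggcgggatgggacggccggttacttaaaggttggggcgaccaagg
Cbl: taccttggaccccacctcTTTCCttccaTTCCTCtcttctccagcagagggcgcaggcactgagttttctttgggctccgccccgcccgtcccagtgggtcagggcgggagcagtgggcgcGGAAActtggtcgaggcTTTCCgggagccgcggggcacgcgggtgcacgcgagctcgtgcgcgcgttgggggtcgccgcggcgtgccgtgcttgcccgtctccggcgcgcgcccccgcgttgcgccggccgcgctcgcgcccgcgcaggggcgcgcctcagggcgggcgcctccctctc
The Src window, of which 82.3% was G or C, held 1 PU.1 match and 0 NFAT core matches. The first Gsn window held 2 of each, the second held 0 of both and the third held 1 NFAT core, while the Cbl window held 3 NFAT cores and 1 PU.1 match. Of 32817 mouse promoters of the same length, 61.3% held the NFAT core and 28.3% the PU.1 motif. The AP-1 motif TGANTCA, found in 7.81% of those promoters, and the E-box CACGTG, found in 7.15%, had 0 matches in these 5 windows. The windows of Was, Tln1 and Vcl are not printed. That of Was held 2 NFAT cores and 1 PU.1 match, that of Tln1 0 and 1, and that of Vcl 0 of both. A match describes letters only.

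Library totals ranged from 15951800 to 19746862 counts. After TMM scaling, the quasi-likelihood test of edgeR was run over the 11995 genes with an FPKM (counts scaled to exon length and to the library total) of at least 1 in at least 3 libraries, and a gene was called at an adjusted p under 0.05. Of the 9 genes, 8 passed this filter and Cttn did not. The labels call the libraries biological replicates without saying how the cultures were kept apart, so a p-value measures the spread between these libraries. Osteoclast markers were present under RANKL, with a summed FPKM over 9 markers of 46.9 to 50.1 in control, 2641 to 2844 with RANKL and 1666 to 1703 with RANKL + UD. Ctsk alone had means of 8.34, 1491 and 869 FPKM in these groups, so it made up most of the 2 sums with RANKL. The 8 macrophage markers summed to 9393 to 9983, 2527 to 2770 and 2204 to 2337 in the same order. Lyz2 made up most of each sum, with means of 8000, 1431 and 1285 FPKM. With RANKL against control, 6 of 7 tested macrophage markers were lower and 1 was higher, Cd68, with means of 549 and 782 FPKM. Markers of fibroblasts, lymphocytes, epithelium and endothelium, and neutrophils summed to at most 0.4 per list in any library. The share of osteoclast-like cells therefore differed or their RNA did, and in bulk RNA these cannot be told apart for any gene below.

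**Figure D1:**
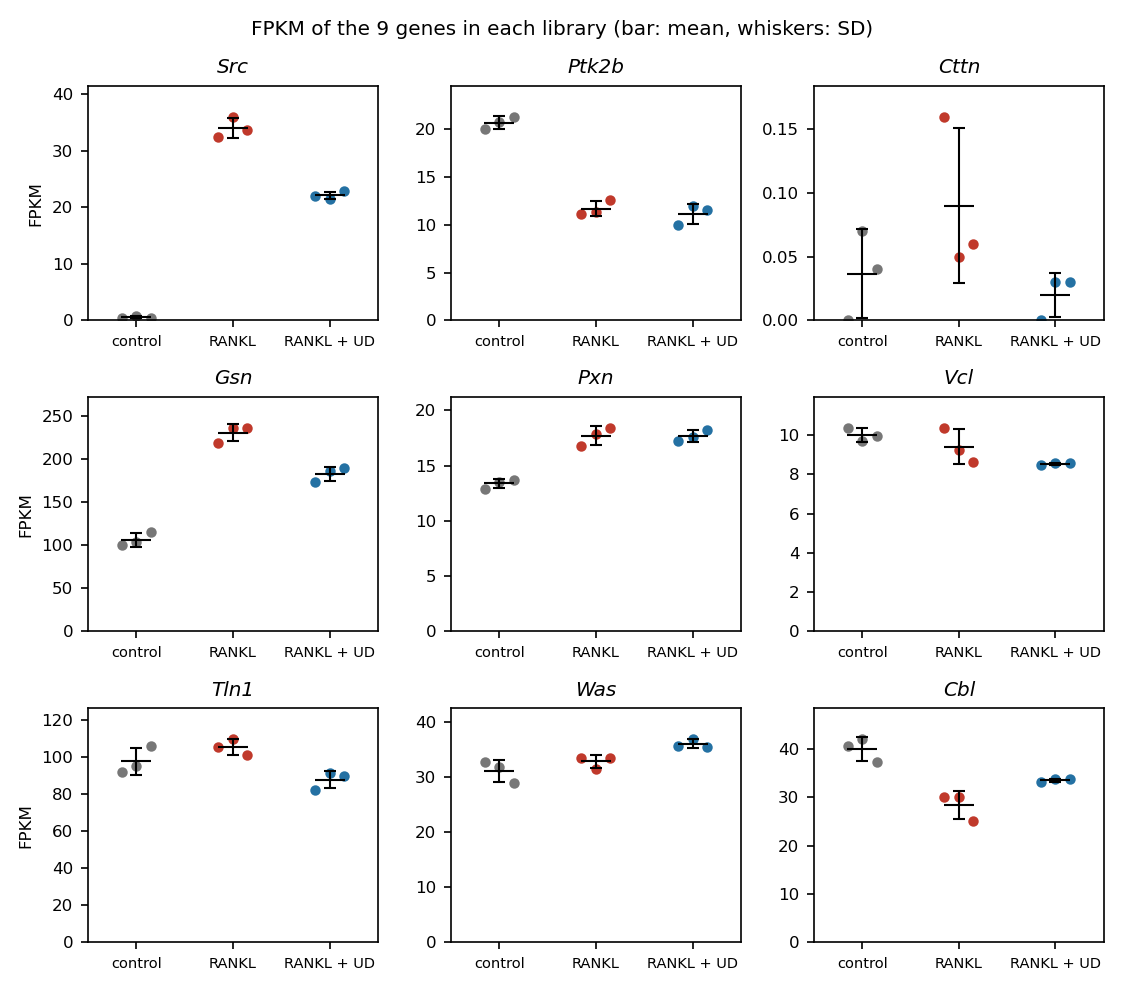
FPKM of each of the 9 genes (y axis, starting at 0, with its own scale per gene) in control, RANKL and RANKL + UD. Points are single libraries, the horizontal bar is the mean and the whiskers are the SD of 3 libraries. Src rises from a mean of 0.543 to 34.0 and stands at 22.1 with UD, and Ptk2b and Cbl are lower with RANKL than in control.

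Src (ENSMUSG00000027646) had an FPKM of 0.39, 0.75 and 0.49 in the control libraries, which rest on 29, 65 and 34 counts. It had 32.39, 35.99 and 33.57 with RANKL and 21.91, 21.49 and 22.82 with RANKL + UD. The 3 groups did not overlap. RANKL raised Src 64.8-fold (log2 fold change 6.02, standard error 0.11, edgeR adjusted p = 1.80e-20). UD lowered it by 0.71 on the log2 scale against RANKL (standard error 0.069, adjusted p = 7.15e-08 from edgeR), and it was still 39.6-fold above control. The fall with UD kept its direction and passed the threshold in all 17 alternatives, with log2 values of -0.74 to -0.60.

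Among other Src-family kinase genes, Fgr, Lyn and Fyn fell under RANKL. Fgr, for a kinase typical of myeloid cells, fell from 28.9 ± 0.513 to 10.3 ± 0.673 FPKM (SD, n = 3). Lyn fell from 61.3 ± 3.35 to 37.7 ± 0.570, and Fyn from 15.8 ± 0.361 to 8.16 ± 0.771 FPKM (SD, n = 3). The log2 fold changes were -1.41 for Fgr, -0.62 for Lyn and -0.86 for Fyn, all called by edgeR. UD lowered Fgr by 0.56 and Lyn by 0.20 on the log2 scale against RANKL, and Fyn differed by -0.04 (adjusted p = 0.713 from edgeR). Lck rose by 0.50 with RANKL from a level near 1 FPKM (adjusted p = 0.0456 from edgeR). Its FPKM was 1.01 to 1.42 in control and 1.36 to 1.78 with RANKL, which overlapped, although the TMM-scaled counts did not. Yes1 held 2 counts in all 9 libraries and Blk 0.

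Ptk2b (ENSMUSG00000059456), the gene for the kinase that docks Src to the podosome, was lower with RANKL than in control. Its FPKM was 19.95, 20.73 and 21.28 in control, 11.07, 11.34 and 12.52 with RANKL and 9.95, 11.92 and 11.52 with RANKL + UD. Control lay above both other groups, which overlapped each other. The log2 fold change was -0.74 for RANKL against control (standard error 0.063, adjusted p = 2.07e-09 from edgeR). UD against RANKL gave -0.15, with a 95% interval of -0.29 to -0.018 and an adjusted p of 0.0676 from edgeR, which missed the threshold, and 4 of 17 alternatives placed it inside. Ptk2, the gene for focal adhesion kinase itself, stood at 9.49 ± 0.853, 8.34 ± 0.394 and 9.11 ± 0.382 FPKM in the 3 groups (SD, n = 3) and was called in neither comparison. The ratio of Ptk2b to Ptk2 within a library was 2.18 ± 0.131 in control, 1.40 ± 0.117 with RANKL and 1.22 ± 0.0654 when UD was added (SD, n = 3). The groups did not overlap, but the lowest RANKL value was 1.29 and the highest RANKL + UD value 1.27. This ratio was chosen after values were seen, and its difference between groups was not tested.

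Cbl (ENSMUSG00000034342) had an FPKM of 40.52, 42.14 and 37.30 in control, 30.15, 30.03 and 25.08 with RANKL and 33.20, 33.71 and 33.78 with RANKL + UD. RANKL + UD lay between the others without overlap. RANKL lowered Cbl by 0.41 on the log2 scale (standard error 0.061, adjusted p = 8.31e-06 from edgeR). UD against RANKL gave 0.15 (95% interval 0.026 to 0.28, adjusted p = 0.0532 from edgeR), just outside the threshold, and 8 of 17 alternatives placed it inside, among them total-count scaling (0.24, adjusted p = 0.00341). Its relative Cblb, a ubiquitin ligase that restrains immune receptor signalling, moved the other way at a far lower level. Cblb rose from 1.19 ± 0.0721 to 2.42 ± 0.0586 FPKM with RANKL and had 1.53 ± 0.0404 FPKM when UD was added (SD, n = 3), with log2 fold changes of 1.11 and -0.75, both called. The ratio of Cbl to Cblb was 31.9 to 35.9 in control, 10.5 to 12.5 with RANKL and 21.1 to 22.7 when UD was added.

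Among the actin-binding genes, Gsn (ENSMUSG00000026879) was the most abundant of the 9 in the RANKL and the RANKL + UD group. It had 100.48, 103.13 and 115.21 FPKM in control, 218.69, 236.30 and 236.41 with RANKL and 173.83, 186.13 and 189.22 with RANKL + UD, and the groups did not overlap. RANKL raised it by 1.20 on the log2 scale (standard error 0.055, adjusted p = 5.27e-14 from edgeR), and UD lowered it by 0.42 against RANKL (standard error 0.054, adjusted p = 2.89e-06 from edgeR). Against control, Gsn with RANKL + UD was 1.72-fold higher. All 17 alternatives kept these calls.

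Cttn (ENSMUSG00000031078) had 0, 6 and 3 counts in the control libraries, 13, 4 and 5 with RANKL and 0, 2 and 2 with RANKL + UD, which is at most 0.16 FPKM. With no expression filter its adjusted p was 0.416 for RANKL against control and 0.158 for RANKL + UD against RANKL (edgeR), and no difference was detectable at this depth. Its relative Hcls1, which encodes the cortactin homolog of blood cells, was expressed at 139.5 ± 10.1, 83.3 ± 5.02 and 107.0 ± 3.68 FPKM in the control, RANKL and UD libraries (SD, n = 3). Hcls1 fell by 0.66 on the log2 scale with RANKL and rose by 0.27 with UD against RANKL (adjusted p = 2.71e-09 and 0.000654 from edgeR).

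Was (ENSMUSG00000031165), whose protein is the activator of Arp2/3 in blood cells, varied little. Its FPKM was 32.74, 31.92 and 28.96 in control, 33.61, 31.60 and 33.59 with RANKL and 35.76, 37.05 and 35.55 with RANKL + UD. The FPKM of control and RANKL overlapped, and that of RANKL + UD lay above both, although RANKL and RANKL + UD overlapped on the TMM-scaled counts. RANKL against control gave a log2 fold change of 0.16 (adjusted p = 0.0217 from edgeR), which did not pass with total-count scaling (0.08, adjusted p = 0.282), with limma on FPKM (0.08 at either pseudocount), or without control replicate 3 (0.11, adjusted p = 0.102), RANKL replicate 1 (0.15, adjusted p = 0.0680) or RANKL replicate 3 (0.15, adjusted p = 0.0546). UD against RANKL gave 0.05 with a 95% interval of -0.075 to 0.17. Against control, Was with RANKL + UD was called higher, also in all 17 alternatives (log2 0.16 to 0.25). Wasl, for the more widely expressed N-WASP, was at 6.65 ± 0.421, 4.68 ± 0.410 and 5.86 ± 0.302 FPKM (SD, n = 3), fell by 0.42 with RANKL and rose by 0.24 with UD against RANKL on the log2 scale. The ratio of Was to Wasl was 4.70 ± 0.443 in control, 7.08 ± 0.687 with RANKL and 6.17 ± 0.174 when UD was added (SD, n = 3).

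The plaque genes are Tln1, Vcl and Pxn. Tln1 (ENSMUSG00000028465) had 91.61, 95.21 and 105.77 FPKM in control, 105.24, 109.87 and 101.28 with RANKL and 82.29, 91.21 and 89.84 with RANKL + UD. The RANKL + UD libraries lay below all RANKL libraries, while the FPKM of control overlapped RANKL. UD lowered Tln1 by 0.35 on the log2 scale against RANKL (standard error 0.055, adjusted p = 2.92e-05 from edgeR), a call that all 17 alternatives kept. The rise with RANKL, 0.20 (adjusted p = 0.00351 from edgeR), was 0.11 and did not pass with total-count scaling (adjusted p = 0.0892) or with limma on FPKM (adjusted p = 0.192 and 0.205 at the pseudocounts 1 and 0.1). Tln2, for the second talin, was at 0.873 ± 0.131, 0.943 ± 0.0551 and 1.30 ± 0.136 FPKM (SD, n = 3) and rose by 0.37 with UD against RANKL. The ratio of Tln1 to Tln2 was 104.7 to 122.2 in control, 105.2 to 116.9 with RANKL and 60.1 to 78.8 with RANKL + UD.

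Vcl (ENSMUSG00000021823) had 10.38, 9.69 and 9.96 FPKM in control, 10.38, 9.25 and 8.61 with RANKL and 8.46, 8.56 and 8.56 with RANKL + UD. Control and RANKL overlapped, and the RANKL + UD libraries were just below the lowest RANKL library. RANKL against control gave a log2 fold change with a 95% interval of -0.13 to 0.13. UD lowered Vcl by 0.23 against RANKL (standard error 0.065, adjusted p = 0.00784 from edgeR), which was -0.14 with total-count scaling (adjusted p = 0.0821) and -0.15 without RANKL replicate 1 (adjusted p = 0.0726) and passed in neither, nor with limma on FPKM (adjusted p = 0.163 and 0.165 at the pseudocounts 1 and 0.1). Against control, Vcl with RANKL + UD was called lower, also in all 17 alternatives (log2 -0.26 to -0.20). Pxn (ENSMUSG00000029528) had 12.93, 13.56 and 13.71 FPKM in control, 16.77, 17.88 and 18.45 with RANKL and 17.19, 17.64 and 18.22 with RANKL + UD. It rose by 0.49 on the log2 scale with RANKL (standard error 0.051, adjusted p = 4.51e-08 from edgeR), and the groups with RANKL overlapped (log2 -0.09, 95% interval -0.19 to 0.017).

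**Figure D2:**
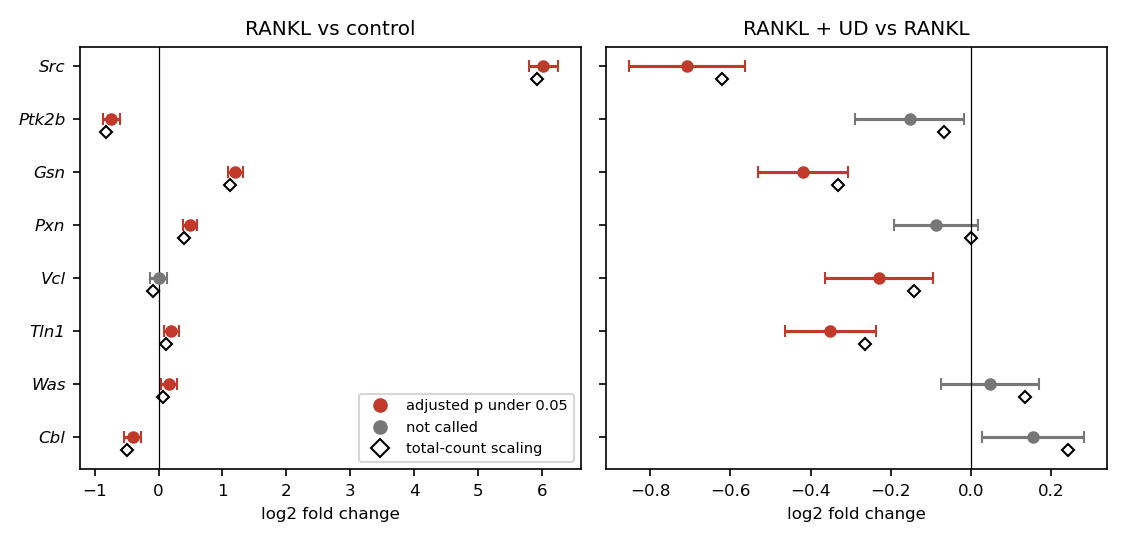
Log2 fold change (x axis) of the 8 tested genes for RANKL against control (left) and RANKL + UD against RANKL (right), with different x ranges. Filled points with whiskers are the edgeR estimates with 95% intervals, red where the adjusted p is under 0.05, and open diamonds are the values with total-count scaling. Src stands at 6.02 on the left and at -0.71 on the right, where Src, Gsn, Tln1 and Vcl are called lower.

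Of the 8 genes tested, 5 were higher and 2 were lower with RANKL than in control (Src, Gsn, Pxn, Tln1 and Was higher, Ptk2b and Cbl lower). Of all genes tested, 57.6% were called in this comparison, 27.3% higher and 30.2% lower. With total-count scaling the share of calls that were higher was 36.8% in place of 47.5% here, and 66.2% in place of 48.0% in RANKL + UD against RANKL. In RANKL + UD against RANKL 4 were lower (Src, Gsn, Tln1 and Vcl), with no call higher, where 38.8% of all genes were called, 18.6% higher and 20.2% lower. Their median log2 fold change was -0.19 beside 0.005 over all genes. In RANKL + UD against control all 8 were called, 4 higher and 4 lower, where 54% of all genes were called, 26.7% higher and 27.3% lower. These comparisons share libraries, so they are not independent. Libraries did not overlap on the scaled counts for 7 of 8 genes with RANKL against control (61% of all genes) and for 5 of 8 with RANKL + UD against RANKL (49.4% of all genes). The 4 genes called lower with UD moved beside the osteoclast markers, of which 8 of 8 tested were lower (median log2 fold change -0.90). Of 7 tested macrophage markers, 6 were also lower and 1 was higher (median -0.28). The part of either shift in these genes was not tested. In the counting of reads, Vcl overlaps Ap3m1 by 2235 bases and Tln1 overlaps Creb3 by 360 bases on the opposite strand, and Was overlaps a U6 gene by 102 bases. The libraries kept the strand, but whether counting used it is not given in the sources used here, so those values are uncertain to that extent. On the same strand, Cbl overlaps 5830462O15Rik by 1655 bases and Gsn overlaps Gm43128 by 1621. Pxn overlaps Gm13840 by 685 bases and Cttn overlaps Gm14376 by 461, also on the same strand. Strand cannot separate reads there, and each of these overlapping genes had a mean of at most 0.394 FPKM.

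By FPKM, which is per length, the order in control was Gsn, Tln1, Cbl, Was, Ptk2b, Pxn, Vcl, Src and Cttn, and only Gsn and Tln1 overlapped among neighbours. With RANKL it was Gsn, Tln1, Src, Was, Cbl, Pxn, Ptk2b, Vcl and Cttn, with an overlap between Src and Was alone. With RANKL + UD it was Gsn, Tln1, Was, Cbl, Src, Pxn, Ptk2b, Vcl and Cttn, and no neighbours overlapped.

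**Figure D3:**
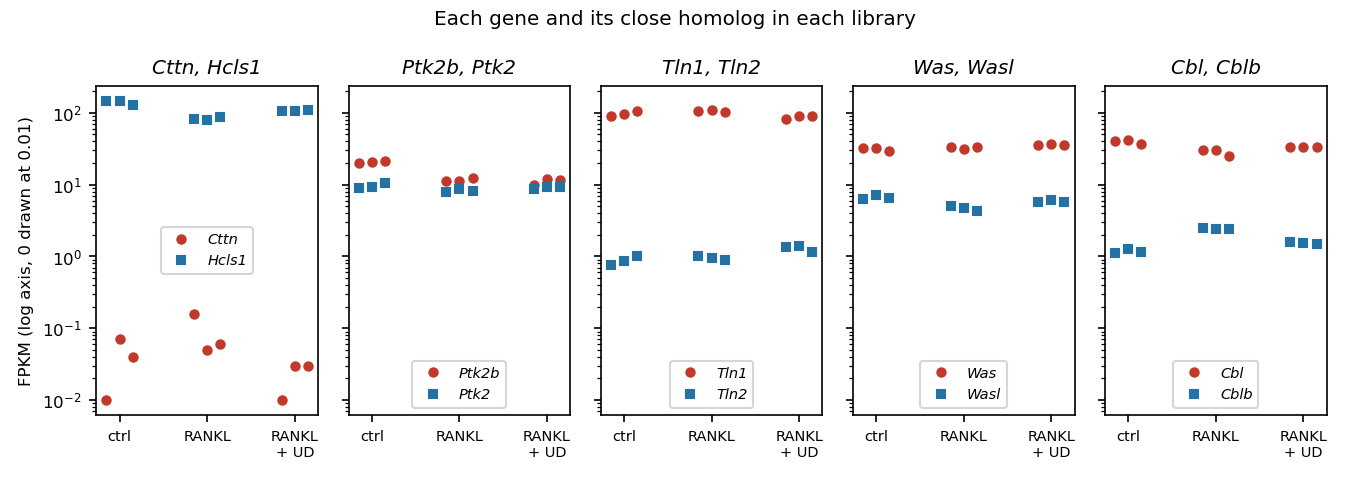
FPKM on a log axis of 5 of the genes (red circles) and a close homolog of each (blue squares) in single libraries of control (ctrl), RANKL and RANKL + UD, with a value of 0 drawn at 0.01. Cttn stays at or under 0.16 while Hcls1 is between 79.1 and 146.4, and the distance between Cbl and Cblb is smallest with RANKL.

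The wider pathway was read from 6 lists with 165 genes, of which 143 were tested. With RANKL against control, 55 were higher and 52 lower (median log2 fold change 0.02, beside -0.03 over all genes), and with RANKL + UD against RANKL 15 were higher and 64 lower (median -0.10, beside 0.005). The share called was 74.8% beside 57.6% of all genes in the first comparison and 55.2% beside 38.8% in the second. With total-count scaling the first split was 45 higher and 64 lower and the second was 26 higher and 44 lower, and with limma on log2(FPKM + 1) the first was 43 higher and 61 lower.

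Of 13 tested regulators and relatives of Src, 3 were higher and 10 lower with RANKL (100% called, beside 57.6% of all genes). Against RANKL, 3 were higher and 6 lower with UD (69.2% called, beside 38.8% of all genes). Matk, for a kinase that can phosphorylate the inhibitory tail of Src-family kinases, rose from 0.08 ± 0.0557 to 4.01 ± 0.467 FPKM with RANKL and was at 1.21 ± 0.0777 with RANKL + UD (SD, n = 3). Its log2 fold change with UD was -1.82 (adjusted p = 2.14e-08 from edgeR), below the -0.71 of Src. Ptpn12, for the phosphatase PTP-PEST, rose by 1.18 with RANKL. Pag1, for a membrane anchor of the inhibitory kinase Csk, fell by 1.49 with RANKL and rose by 0.29 with UD. Ptpn6, for the phosphatase SHP-1, rose by 0.24 with UD.

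Of 15 tested adaptor genes around FAK, p130Cas, Crk and Cbl, 6 were higher and 5 lower with RANKL (73.3% called, beside 57.6% of all genes). Adding UD gave 3 higher and 7 lower against RANKL (66.7% called, beside 38.8% of all genes). The docking proteins of the Cas family changed places, since Bcar1 (p130Cas) rose from 0.08 ± 0.0625 to 1.35 ± 0.302 FPKM and Nedd9 fell from 2.82 ± 0.0603 to 0.53 ± 0.0265 FPKM with RANKL (SD, n = 3). Both were lower with UD than with RANKL, by 0.69 and 0.54 on the log2 scale. Sh3kbp1, for the Cbl-binding adaptor CIN85, rose by 1.88 with RANKL, and Arhgef7 fell by 0.44. Pik3r1, for a regulatory subunit of PI3K, and Crkl rose by 0.26 and 0.24 with UD.

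Among 23 tested actin nucleation genes, 10 were higher and 6 lower with RANKL (69.6% called, beside 57.6% of all genes). The comparison of UD against RANKL had 3 higher and 12 lower (65.2% called, beside 38.8% of all genes). Nckap1, for a subunit of the WAVE complex, rose from 1.54 ± 0.0777 to 7.42 ± 0.790 FPKM with RANKL (SD, n = 3), and its subunit partner Abi1 rose by 0.79 on the log2 scale. The formin gene Fmnl1 fell by 1.00. The blood-cell form Nckap1l fell by 0.37 with UD and the formin gene Diaph1 by 0.32.

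Of 21 tested adhesion plaque genes, 11 were higher and 5 lower with RANKL (76.2% called, beside 57.6% of all genes). Against RANKL, 1 was higher and 13 lower with UD (66.7% called, beside 38.8% of all genes). Actn1, for an actinin that cross-links actin at the plaque, rose from 13.4 ± 0.314 to 48.2 ± 2.02 FPKM with RANKL and was at 33.9 ± 1.11 with RANKL + UD (SD, n = 3). Lims2, for a partner of integrin-linked kinase, rose by 2.06 with RANKL and fell by 1.26 with UD. Evl, of the Ena/VASP family, and Zyx (zyxin) fell by 1.55 and 0.41 with RANKL, and Pdlim7 fell by 0.66 with UD.

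Of 38 tested actin-binding genes, 14 were higher and 13 lower with RANKL (71.1% called, beside 57.6% of all genes). Adding UD gave 2 higher and 15 lower against RANKL. The share called in the second comparison, 44.7%, was near the 38.8% of all genes. The myosin I gene Myo1e rose from a mean of 31.8 to 84.7 FPKM with RANKL and the tropomyosin gene Tpm1 by 1.31 on the log2 scale, while Lsp1, for a leukocyte F-actin binder, and Ssh2, for a cofilin phosphatase, fell by 2.27 and 1.77. The myosin genes Myo10 and Myo1f fell by 0.56 and 0.48 with UD, and Myl12b and Tpm3 rose by 0.37 and 0.18.

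Of 33 tested genes of podosome GTPases, exchange factors and Tks scaffolds, 11 were higher and 13 lower with RANKL (72.7% called, beside 57.6% of all genes). The comparison of UD against RANKL had 3 higher and 11 lower. The share called with UD, 42.4%, was also near the 38.8% of all genes. Rhou, for a Cdc42-like GTPase, went from 1 count over the 3 control libraries to 549 over the 3 RANKL libraries and 224 over the 3 RANKL + UD libraries, and it fell by 1.24 on the log2 scale with UD. Dock5, for an exchange factor that activates Rac, rose from 6.63 ± 0.0252 to 33.4 ± 2.18 FPKM with RANKL (SD, n = 3). Pstpip1, for a protein that binds WASP and PTP-PEST, fell by 0.81 with UD. Fgd2 and Cdc42ep3 fell by 2.37 and 0.95 with RANKL, and Cdc42ep3 and Frmd4b each rose by 0.46 with UD. These log2 fold changes are edgeR estimates of genes that passed the threshold.

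**Figure D4:**
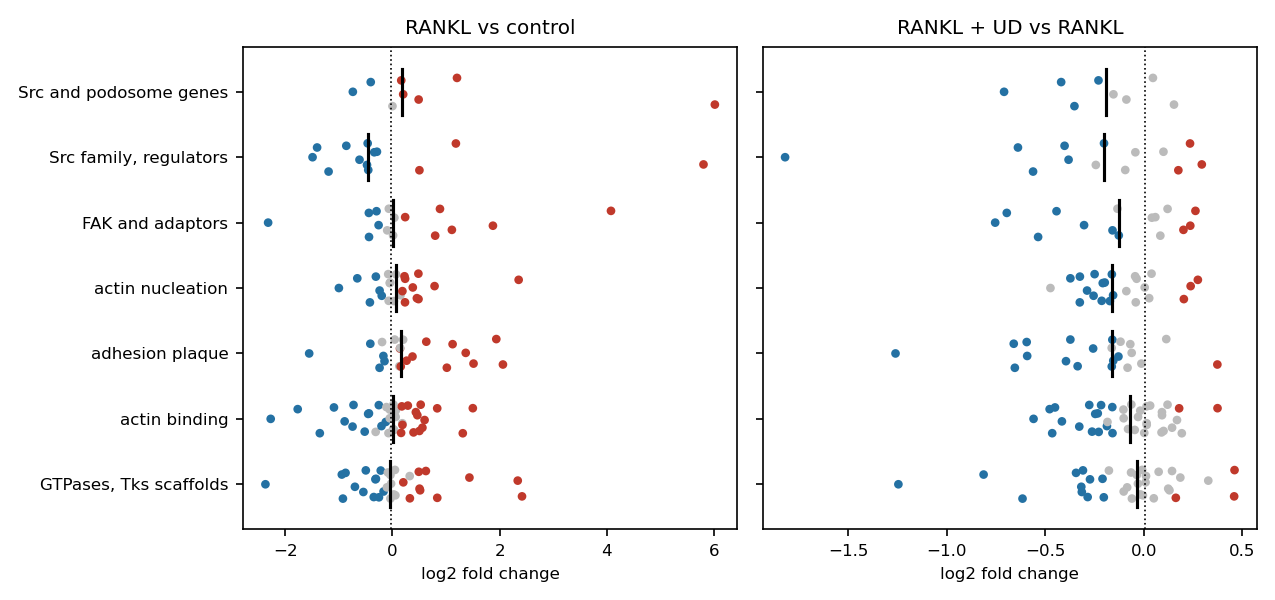
Log2 fold change (x axis) of the tested genes in each list for RANKL against control (left) and RANKL + UD against RANKL (right), red where higher, blue where lower and grey where not called. Black bars are list medians, the dotted line is the median of all genes, and Rhou is left out on the left because control holds 1 count. On the right the medians lie between -0.20 and -0.03, all below the median of all genes of 0.005.

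The genes whose pattern over the 9 libraries was most like that of Src were Myo1d, Clec4a2 and Slc6a8, for a myosin I, a C-type lectin and the creatine transporter. Their Pearson correlation with Src on log2(CPM + 1) was 0.999 each, and their mean FPKM went from 5.36, 5.39 and 2.03 in control to 27.4, 43.9 and 20.2 with RANKL and 22.9, 37.2 and 16.03 with RANKL + UD. For Gsn they were Ckb (brain-type creatine kinase), Pgm1 and Ldha, with r of 0.999, 0.998 and 0.997. For Ptk2b they were the transcription factor genes Irf8 and Runx1 and the gene Cln6, with r of 0.993, 0.992 and 0.991. For Cbl they were Zfp369, Otud4 and C1galt1, with r of 0.986, 0.984 and 0.983. For Pxn they were Mfge8, Ndufv1 and Efhd2 (r of 0.997, 0.996 and 0.994), and for Was they were Thrap3, Klhdc1 and Rrs1 (0.985, 0.981 and 0.981). For Tln1 they were Itpr3, Hmg20b and Zmiz1 (0.988, 0.979 and 0.976), and for Vcl they were Utrn, Ccl6 and Rprd2 (0.983, 0.958 and 0.956). Over 9 libraries in 3 groups these values describe mainly the order and spacing of the groups, and the libraries share their treatment.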

How the data were processed

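RNA-seq libraries of RAW264.7 cells (control, RANKL, RANKL + UD, 3 each) were assigned to groups by their titles, and each of the 18 value columns was matched to 1 library by its header. The RANKL columns are headed Model, and were matched because the paper sets a model group against the uridine group. The authors deposited whole-number counts per gene, without normalization, and FPKM, which the counts, exon lengths and library totals gave again within 0.0051 for 100% of genes. Per the labels, RNA was poly(A)-selected and libraries kept the strand. The submitters' processing notes list mm10, yet only 1 of the 9 genes, and 1435 of 52073 genes shared with the GRCm38 annotation, had the same coordinates there, so deposited coordinates are not printed. The aligner and counting tool are not given in the sources used here, and the paper names DESeq2.

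edgeR 4.0.16 in R 4.3.3 was run with TMM scaling, all 9 libraries in a single fit and Benjamini-Hochberg adjustment over 11995 genes, with intervals from the quasi-likelihood F statistic. TMM factors were 0.959 to 0.962 for RANKL and 1.01 to 1.03 for the others. Alternatives were RLE or total-count scaling, no FPKM filter, 6 libraries, the replicate number as a block, DESeq2 1.42.0, limma 3.58.1 on log2(FPKM + 1) and log2(FPKM + 0.1), and each library left out. The test was checked on simulated counts in which 200 of 11995 genes were changed in RANKL + UD. Against RANKL it recovered 85.5% of them, with 10 false calls. Far fewer genes changed there than were called in these data, so the check cannot judge the choice of scaling. The totals, 15951800 to 19746862 counts, limit genes under a few counts, such as Cttn.

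The 9 genes, lists and motifs were chosen with earlier results of these data known. Named are the 9 genes, Src-family kinases, per list and comparison up to 2 genes with the largest rise and 2 with the largest fall among called genes whose libraries did not overlap, and the 3 genes most correlated with each of the 8 tested. A gene that this rule names, and the results that need it, are not reported here. Ptk2 as a homolog, like the within-library ratios, was chosen after values were seen. Libraries of a group differed by more than sampling noise (chi-square per degree of freedom 2.83 to 8.22).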

Additional observations from a re-analysis of the deposited data

How the results depend on the processing

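Over 24 fold changes of the 8 tested genes and 17 alternatives, 372 of 408 values kept direction and side of the threshold, 17 lost the call, 12 gained it and 7 changed sign. The sign changes were all of Vcl in RANKL against control, called nowhere, at -0.088 with total counts, -0.083 and -0.091 with limma on log2(FPKM + 1) and log2(FPKM + 0.1), -0.0020 with the replicate block, and below 0 without control replicate 2, control replicate 3 or RANKL replicate 1, where the range over all 9 left-out libraries was -0.078 to 0.060 beside a value of 0.0001 with all libraries. Of the 9 genes, 3 in place of 5 were higher with RANKL with total counts and with limma at either pseudocount. Cbl was called higher in RANKL + UD against RANKL, giving 1 gene in place of 0, with total counts, no FPKM filter, only the 6 libraries, the replicate block and limma on log2(FPKM + 1), and the count was 0 to 1 with a library left out, namely 1 without control replicate 3, RANKL replicate 1 or RANKL replicate 2. Pathway genes higher with UD against RANKL were 26 in place of 15 with total counts, and those lower were 39 and 37 in place of 64 with limma at the pseudocounts 1 and 0.1. Tln1 in RANKL + UD against control lost its call in 4 alternatives. The cause of these changes was not tested. Same-numbered libraries correlated at -0.0323 to 0.174 in their deviations from the group means, and differently numbered ones at -0.184 to 0.109. These ranges overlap and whether the numbers mark pairing was not tested, so the replicate number entered only as an alternative. Over all genes in RANKL + UD against RANKL, the block gave 2347 higher and 2518 lower, beside 2233 and 2418 without it. Ptk2b was called lower in RANKL + UD against RANKL in 4 alternatives, with the replicate number as a block (-0.15, edgeR adjusted p = 0.0318), with RLE scaling (0.0495), without RANKL replicate 1 (0.0486) and without RANKL + UD replicate 2 (0.0396). Depth limits Cttn, with at most 13 counts in a library.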
